A study of Homo sapiens with 48 samples.

Results

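Oci-Ly18 is an established human cell line of the germinal centre B cell-like type of diffuse large B cell lymphoma. The comparison described here set Oci-Ly18 cells grown with 2 histone methyltransferase inhibitors at once, EPZ-5676 against DOT1L and GSK343 against EZH2 (labelled Combo), against Oci-Ly18 cells grown with DMSO, the solvent alone. Both groups were kept for 6 days in IMDM with fetal bovine serum, and treated cells were reseeded with fresh medium and inhibitors on day 3. The libraries were chosen by their labels: 3 combination libraries and 3 DMSO libraries, 6 of the 48 in a series that also holds each inhibitor alone (labelled EZH2i and DOT1Li) and the same 4 treatments in the lines Oci-Ly7, Oci-Ly8 and SUDHL6. All genes of the count table were examined. The labels give no doses, and they do not say whether the 3 replicates of a group came from separate cultures, so the p-values measure the spread between these libraries, which may be technical.

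EZH2 is the enzyme of a Polycomb complex called PRC2, and it methylates histone H3 at silenced genes. Germinal centre B cells make much of it, and there it holds down genes that stop the cell cycle and genes that take cells out of the germinal centre. DOT1L methylates histone H3 along the bodies of transcribed genes and works with the elongation machinery. Germinal centre B cells divide fast and mutate their antibody genes under the repressor BCL6, then leave as memory B cells, or as plasma cells under the repressor PRDM1.

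Polyadenylated RNA was sequenced with a stranded kit, and the deposited values were raw read counts per gene. Combination libraries held 12939667 to 16326768 counts and DMSO libraries 12781646 to 15062530. Combination libraries had counts for 22149 to 22853 genes, against 20899 to 21476 genes in DMSO libraries. The slope of log2 level on log2 exonic length was 1.0019 to 1.0083 in combination libraries and 0.968 to 0.9784 in DMSO libraries, a small shift towards long genes whose part in the results was not tested. Replicates differed by more than sampling noise (chi-square of 2.157 to 4.213 per degree of freedom), and combination replicate 1 stood farthest from the others of its group. The B cell identity of the line showed in both groups: the B cell surface gene MS4A1 averaged 786 ± 15.8 CPM (counts per 1000000, scaled for library composition) in combination libraries and 681 ± 9.01 CPM in DMSO libraries (SD, n = 3 each), and the germinal centre surface gene MME averaged 115 ± 18.3 CPM in combination libraries and 111 ± 6.35 CPM in DMSO libraries. The T cell receptor genes CD3D and CD3G had no count in any of the 6 libraries, and CD3E had a few.

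More genes rose than fell, and the large changes were almost all rises. A gene was called higher or lower when edgeR's quasi-likelihood test gave a Benjamini-Hochberg adjusted p under 0.05 over the 17749 genes tested. By this rule 3740 genes (21.1%) were higher with the combination and 2477 (14%) were lower, and 7670 genes had an unadjusted p under 0.05. A change of at least 1 on the log2 scale was reached by 1785 of the higher genes (10.1% of those tested) but by only 172 of the lower ones (0.969%). The large rises began low, with a median of 2.41 CPM in combination libraries and 0.639 CPM in DMSO libraries, and 1106 of them (62.0%) were under 1 CPM in DMSO libraries, against 25.1% of all tested genes. The large falls had a median of 1.7 CPM in combination libraries and 5.15 CPM in DMSO libraries. Among protein-coding genes 3138 (23.2%) were higher and 2299 (17%) lower, whereas among long non-coding RNA genes 480 (18%) were higher and 110 (4.12%) lower. The median log2 fold change over all tested genes was 0.05. As these are relative levels in bulk RNA, fewer cells of a type and less RNA of a gene per cell cannot be told apart.

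**Figure D1:**
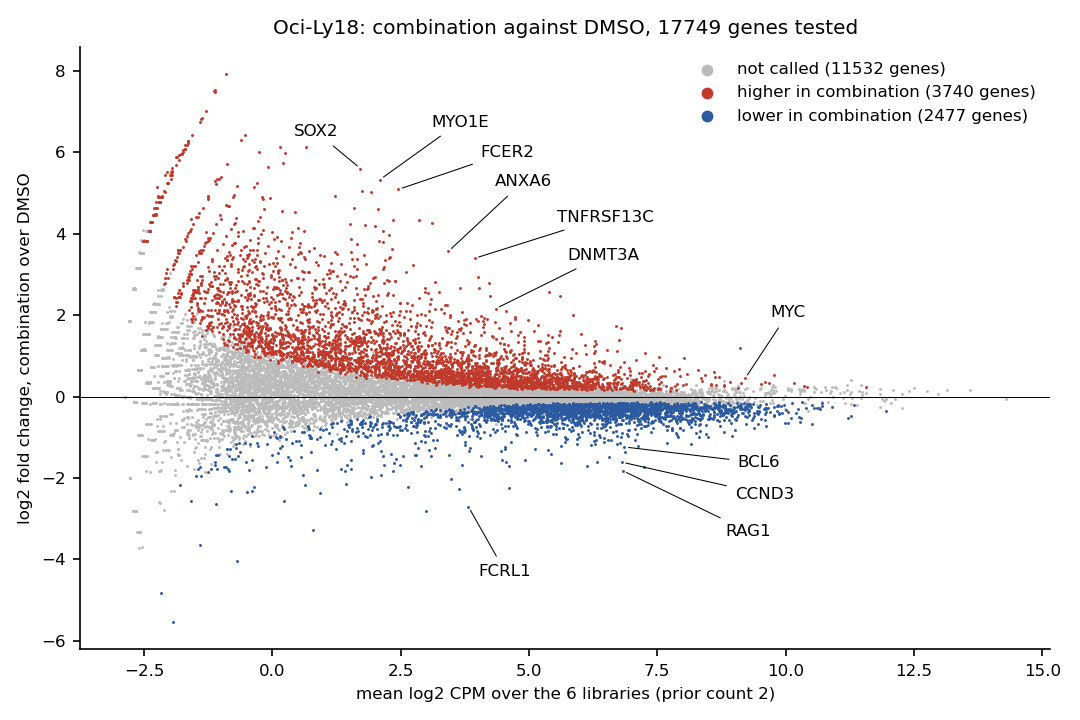
Log2 fold change of the combination against DMSO in Oci-Ly18 (vertical axis) by mean log2 CPM over the 6 libraries (horizontal axis), 1 point per tested gene. Red points are the 3740 genes called higher, blue points the 2477 called lower and grey points the rest, and the large changes lie mostly above 0 and at low levels.

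Among protein-coding genes with a mean log2 CPM of at least 1 and counts in every DMSO library, the largest rise was that of SOX2 (ENSG00000181449, chr3:181711925-181714436, GRCh38), a transcription factor of stem cells and of the nervous system. It was at 13.04, 26.3 and 25.4 CPM in combination libraries, against 0.163, 0.716 and 0.421 CPM in DMSO libraries, a 48.3-fold change of the fitted levels (log2 fold change 5.59 ± 0.33 SE, adjusted p = 1.01e-13). Combination replicate 1 was the lowest of its group, yet far above all 3 DMSO libraries. The motor protein gene MYO1E (ENSG00000157483, chr15:59132434-59372871) followed, with 14.1, 33.8 and 30.8 CPM in combination libraries and 0.652, 0.398 and 0.841 CPM in DMSO libraries (log2 fold change 5.33 ± 0.46 SE, adjusted p = 1.58e-11). FCER2 (ENSG00000104921, chr19:7688758-7702146) encodes CD23, a low-affinity IgE receptor of mature B cells, and had 20.1, 32.2 and 39.8 CPM in combination libraries and 0.897, 0.716 and 1.05 CPM in DMSO libraries (log2 fold change 5.08 ± 0.298 SE, adjusted p = 6.07e-17). In all 3 genes the groups lay far apart, and replicate 1 was the lowest of the combination libraries. SOX2 overlaps the non-coding gene SOX2-OT, which averaged 9.55 CPM in combination libraries and 0.131 CPM in DMSO libraries. MYO1E overlaps FAM81A, which averaged 36.5 CPM in combination libraries and 13.5 CPM in DMSO libraries. Reads of these partners may not be separated.

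Other genes among the largest rises had varied functions. PGAM2, the muscle form of phosphoglycerate mutase, had 19.2, 17.5 and 17.3 CPM in combination libraries and 0.245, 0.637 and 0.701 CPM in DMSO libraries (log2 fold change 5.05 ± 0.27 SE, adjusted p = 1.17e-18). TFAP2B, a neural crest transcription factor, rose by 5.03 ± 0.33 on the log2 scale, and NRCAM, a neuronal adhesion molecule, by 4.33 ± 0.22. FKBP10, a collagen chaperone of the endoplasmic reticulum, rose by 4.93 ± 0.31, and FMOD, the matrix proteoglycan fibromodulin, by 4.24 ± 0.29. The actin regulators INF2 and FNBP1 rose by 4.62 ± 0.29 and 4.34 ± 0.31, the lipid transporter gene ABCA2 by 4.599 ± 0.26, and NT5E, which encodes the ectonucleotidase CD73, by 4.27 ± 0.21. Adjusted p-values (edgeR) of these 8 genes lay between 3.33e-20 and 6.91e-13.

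The genes with the smallest adjusted p were moderately expressed and mostly higher. ANXA6 (ENSG00000197043, chr5:151100706-151157815), a calcium-dependent membrane-binding protein, was at 31.8, 37.5 and 40.9 CPM in combination libraries, against 3.26, 2.39 and 3.58 CPM in DMSO libraries (log2 fold change 3.56 ± 0.13 SE, adjusted p = 9.16e-26). CABLES1, a cyclin-dependent kinase adaptor, was at 96.2, 124 and 128 CPM in combination libraries, against 20.6, 18.1 and 23.8 CPM in DMSO libraries (log2 fold change 2.47 ± 0.102 SE, adjusted p = 2.87e-24). The 2 groups did not overlap in either gene. ZMYND11, a reader of methylated histone H3, rose by 1.902 ± 0.098, HEY2, a transcriptional repressor downstream of Notch, by 2.78 ± 0.15, and NME4, a mitochondrial nucleoside diphosphate kinase, by 2.104 ± 0.12 in log2 fold change; the edgeR adjusted p-values were 1.7e-20, 2.12e-19 and 2.12e-19.

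Genes with no count in any DMSO library numbered 715 among those tested, and 81 of them (11.3%) were called higher, 58 of them protein-coding. Their rises are bounded from below, taking 3 counts over the DMSO group (0.0767 CPM) as the floor, and the bounds ran from 1.46-fold to 26.3-fold. CAMK2B, a calmodulin-dependent kinase subunit of neurons, had 1.29, 2.51 and 2.38 CPM in combination libraries and was at least 26.3-fold higher than in DMSO libraries (edgeR, adjusted p = 1.14e-10). LSAMP, a neuronal adhesion molecule, was at least 19.6-fold higher with 0.674, 2.199 and 1.798 CPM in combination libraries (adjusted p = 4.58e-07). BRINP2 was at least 19.6-fold higher, KIAA1614 at least 14.02-fold, the desmosomal cadherin gene DSG1 at least 12.6-fold, the G protein regulator gene GPSM1 at least 12.3-fold, ASB4 at least 11.7-fold and the phosphatase gene PTPN3 at least 8.47-fold, with adjusted p-values from 1.6e-08 to 0.000911. In the opposite direction, 461 tested genes had no count in any combination library and 2 of them (0.434%) were called lower, neither of them protein-coding. Both totals hold the 397 tested genes with no count in any of the 6 libraries, which could not be called. A gene silent in a group could be called in a single direction only, and it can pass the low-count filter through the other group. These shares are therefore no test of direction. Fitted to the 6 compared libraries alone, or to the 12 of Oci-Ly18, 6 of the genes silent in DMSO libraries were called in place of 81.

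The large falls included B cell genes. FCRL1 (ENSG00000163534, chr1:157794403-157820120), an Fc receptor-like surface protein of B cells, was at 9.86, 3.85 and 3.47 CPM in combination libraries, against 34.6, 42.3 and 37.3 CPM in DMSO libraries (log2 fold change -2.702 ± 0.22 SE, adjusted p = 3.08e-13). The groups were well apart, although combination replicate 1 held more FCRL1 than the other two. Without that library the log2 fold change of FCRL1 was -3.38. RAG1 (ENSG00000166349, chr11:36510372-36593156), the recombinase of antibody gene assembly, fell to 67.2, 58.98 and 55.1 CPM in combination libraries, against 221, 227 and 193 CPM in DMSO libraries (log2 fold change -1.82 ± 0.18 SE, adjusted p = 3.78e-10).

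Further large falls were those of 9 other genes. CREB5, a transcription factor, had a log2 fold change of -2.24 ± 0.14 SE, with 12.5, 11.8 and 9.31 CPM in combination libraries and 51.7, 58.2 and 49.3 CPM in DMSO libraries. P4HA2, a collagen prolyl hydroxylase subunit, was at 39.3, 38.7 and 37.96 CPM in combination libraries, against 114, 117 and 148 CPM in DMSO libraries (log2 fold change -1.71 ± 0.11 SE). F13A1, the catalytic subunit of coagulation factor XIII, was at 93.02, 70.1 and 87.4 CPM in combination libraries, against 265, 266 and 298 CPM in DMSO libraries (log2 fold change -1.72 ± 0.14 SE). The gene named CPM, which encodes carboxypeptidase M, had a log2 fold change of -2.23 ± 0.18, GBP4, an interferon-inducible GTPase, -2.14 ± 0.34, and CDHR3, a cadherin-related protein, -1.97 ± 0.24. For IQCD, JSRP1 and C3orf52 it was -2.03 ± 0.16, -1.82 ± 0.41 and -1.71 ± 0.18, with adjusted p-values (edgeR) of 2.36e-14, 0.000515 and 2.11e-10. In each of these 9 genes all 3 combination libraries lay below all 3 DMSO libraries. The carboxypeptidase M gene overlaps MDM2, which is far more abundant, and JSRP1, IQCD and C3orf52 overlap OAZ1, TPCN1 and GCSAM. In all, 74 of the 202 genes singled out by rule or list overlap another tested gene, and the sources used here do not say whether counting used strand, so reads of such partners may not be separated.

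The inhibited enzymes themselves were measured first among the gene groups. EZH2 (ENSG00000106462, chr7:148807257-148884321) was at 209, 188 and 177 CPM in combination libraries, against 273, 289 and 290.4 CPM in DMSO libraries, and fell with no overlap of the groups (log2 fold change -0.57 ± 0.06 SE, adjusted p = 1.19e-10). DOT1L (ENSG00000104885, chr19:2163933-2232578) was at 88.1, 93.4 and 89.7 CPM in combination libraries, against 99.5, 101 and 105 CPM in DMSO libraries, which did not pass the test (log2 fold change -0.17 ± 0.08 SE, adjusted p = 0.092). EZH1, the second PRC2 methyltransferase, averaged 104 ± 3.16 CPM in combination libraries and 90.5 ± 4.64 CPM in DMSO libraries and did not pass either (log2 fold change 0.202 ± 0.09 SE, adjusted p = 0.0918). With the replicate number as a block, both DOT1L (adjusted p = 0.0202) and EZH1 (adjusted p = 0.0107) did, as they did when only the 12 libraries of Oci-Ly18 were fitted. The inhibitors act on the enzymes' activity, so these transcript levels do not check the treatment.

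Counts within the gene groups stand against the shares over all tested genes, 21.1% higher and 14% lower. Of 29 tested genes for PRC2 and PRC1 subunits, 10 were higher and 8 lower. BMI1, a core subunit of PRC1, was at 24.3, 39.3 and 39.95 CPM in combination libraries, against 15.7, 16.7 and 16.3 CPM in DMSO libraries (log2 fold change 1.08 ± 0.12 SE, adjusted p = 2.55e-10). The histone-binding PRC2 subunits RBBP7 and RBBP4 fell, with log2 fold changes of -0.49 ± 0.06 and -0.41 ± 0.05. Among 25 tested genes for DOT1L and elongation partners 3 were higher and 5 lower. AFF3, of the AFF family of elongation scaffolds, rose to 125, 146 and 139.6 CPM in combination libraries, against 66.9, 62.3 and 56.8 CPM in DMSO libraries (log2 fold change 1.14 ± 0.14 SE, adjusted p = 1.95e-08), and MLLT3, which recruits DOT1L, had a log2 fold change of 0.76 ± 0.13. KDM2B, a histone demethylase, fell (-0.298 ± 0.07).

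Of 27 tested histone and DNA methylation enzymes 4 were higher and 9 lower. The maintenance and de novo DNA methyltransferase genes moved in opposite directions. DNMT3A (ENSG00000119772, chr2:25227855-25342590), which writes new DNA methylation, was at 34.5, 46.4 and 48.6 CPM in combination libraries, against 9.13, 8.59 and 11.1 CPM in DMSO libraries (log2 fold change 2.16 ± 0.13 SE, adjusted p = 3.5e-18). DNMT1 (ENSG00000130816, chr19:10133342-10231286), which copies DNA methylation at replication, was at 535, 497 and 502 CPM in combination libraries, against 853, 901 and 846 CPM in DMSO libraries (log2 fold change -0.76 ± 0.06 SE, adjusted p = 1.86e-15). EHMT1, a histone H3 methyltransferase of silent chromatin, was at 242, 224 and 211 CPM in combination libraries, against 473, 462 and 414 CPM in DMSO libraries (log2 fold change -0.99 ± 0.07 SE, adjusted p = 7.85e-17). KDM5B, a histone H3 demethylase, rose by 1.32 ± 0.15 on the log2 scale (adjusted p = 4.15e-09). None of these 4 genes had overlapping groups.

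Germinal centre genes split in both directions. Of 29 tested, 14 were lower and 7 higher, with a median log2 fold change of 0.03. BCL6 (ENSG00000113916, chr3:187721377-187745725), the repressor that sets up the germinal centre state, was at 85.9, 69.5 and 71.9 CPM in combination libraries, against 188, 161 and 188 CPM in DMSO libraries (log2 fold change -1.24 ± 0.13 SE, adjusted p = 1.91e-10). MYBL1 (ENSG00000185697, chr8:66562175-66614247), a transcription factor of dividing germinal centre cells, was at 29.1, 25.1 and 24.9 CPM in combination libraries, against 63.3, 59.8 and 72.4 CPM in DMSO libraries (log2 fold change -1.304 ± 0.14 SE, adjusted p = 4.78e-10). The highest combination library was below the lowest DMSO library by a wide margin in both. HMCES, which shields abasic sites in DNA, fell too, with 56.2, 51.8 and 52.7 CPM in combination libraries and 101, 98.7 and 101 CPM in DMSO libraries (log2 fold change -0.904 ± 0.08 SE, adjusted p = 4.54e-13). MME, the surface enzyme CD10, did not pass the test, with 94.3, 125 and 127 CPM in combination libraries and 106, 107 and 118 CPM in DMSO libraries (log2 fold change 0.06 ± 0.11 SE, adjusted p = 0.732).

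Other germinal centre genes rose. RGS13, a brake on chemokine receptor signalling, was at 15.004, 25.5 and 17.3 CPM in combination libraries, against 2.45, 3.66 and 3.43 CPM in DMSO libraries (log2 fold change 2.58 ± 0.21 SE, adjusted p = 9.99e-13). MEF2C, a transcription factor activated downstream of the B cell receptor, was at 33.9, 39.4 and 39.2 CPM in combination libraries, against 17.04, 18.1 and 15.5 CPM in DMSO libraries (log2 fold change 1.15 ± 0.104 SE, adjusted p = 1.27e-12). The count of higher germinal centre genes was 4 in place of 7 without combination replicate 2, without combination replicate 3 or without DMSO replicate 1. Among 24 tested genes that mark the dark zone, where cells divide, and the light zone, where they are selected, 7 were higher and 9 lower, with a median of 0.009. The list was not counted by zone, and a shift between the zones was not tested. The D-type cyclin gene CCND3 (ENSG00000112576, chr6:41934934-42050357) fell, to 72.9, 60.6 and 59.03 CPM in combination libraries, against 190.4, 196 and 202 CPM in DMSO libraries (log2 fold change -1.61 ± 0.08 SE, adjusted p = 1.34e-21), while the light zone genes FCER2 and EGR2 rose, EGR2 by 2.31 ± 0.28 on the log2 scale (adjusted p = 5.78e-09).

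**Figure D2:**
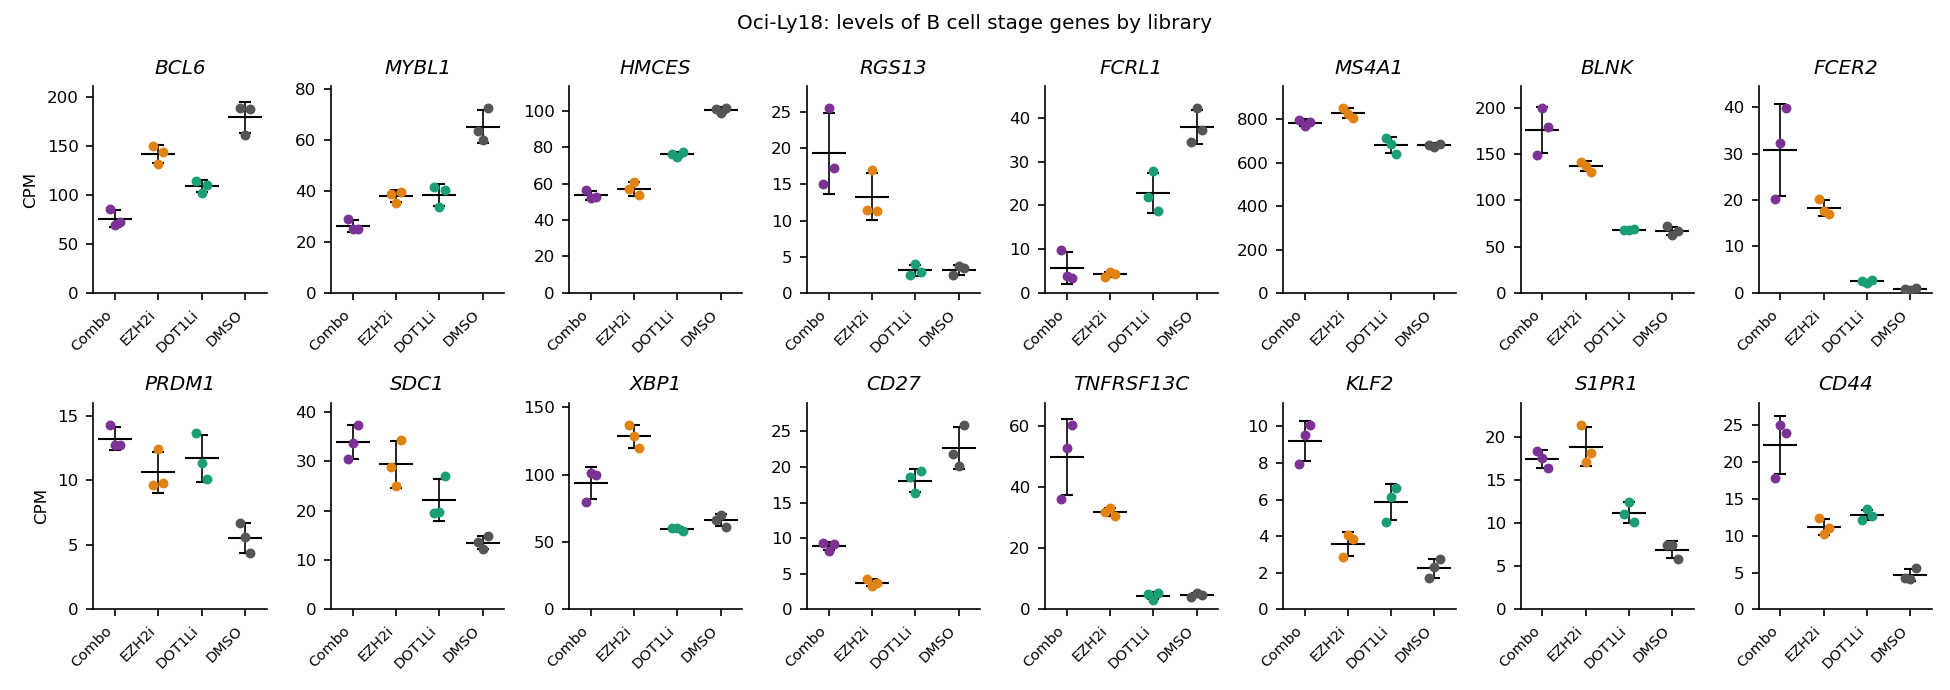
Level in CPM (vertical axis, linear from 0) of 16 B cell genes in each Oci-Ly18 library given the combination, EZH2i, DOT1Li or DMSO, with points for libraries and bars for the mean and SD (n = 3 per group). BCL6, FCRL1 and CD27 are lower and FCER2, TNFRSF13C, KLF2, CD44, SDC1 and BLNK higher in all 3 combination libraries than in any DMSO library.

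Plasma cell genes included members that rose and members that fell. Of 28 tested, 10 were higher and 4 lower, beside 21.1% higher and 14% lower over all tested genes, with a median of 0.23. PRDM1 (ENSG00000057657, chr6:105993463-106109939), the repressor that drives plasma cell formation, was at 14.3, 12.7 and 12.7 CPM in combination libraries, against 6.69, 5.65 and 4.35 CPM in DMSO libraries (log2 fold change 1.26 ± 0.26 SE, adjusted p = 0.000169). SDC1, the plasma cell surface proteoglycan CD138, was at 30.6, 33.7 and 37.4 CPM in combination libraries, against 13.6, 12.3 and 14.8 CPM in DMSO libraries (log2 fold change 1.32 ± 0.13 SE, adjusted p = 1.43e-10). XBP1, a transcription factor of the secretory apparatus, was at 79.7, 101 and 99.9 CPM in combination libraries, against 66.3, 70.3 and 61.5 CPM in DMSO libraries (log2 fold change 0.503 ± 0.12 SE, adjusted p = 0.00101). All 3 genes were higher in every combination library than in any DMSO library. DERL3, which helps to clear misfolded proteins from the endoplasmic reticulum, rose by 1.02 ± 0.12.

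In contrast, JCHAIN, the joining chain of polymeric antibodies, was at 172, 159 and 145 CPM in combination libraries, against 265, 292 and 234 CPM in DMSO libraries (log2 fold change -0.73 ± 0.195 SE, adjusted p = 0.00315). CD38, a surface enzyme of plasma and germinal centre cells, had a log2 fold change of -0.53 ± 0.12 SE (adjusted p = 0.000772). CD27, a TNF receptor of memory and plasma cells, was at 9.37, 8.25 and 9.12 CPM in combination libraries, against 21.9, 20.1 and 25.9 CPM in DMSO libraries (log2 fold change -1.34 ± 0.13 SE, adjusted p = 1.64e-11), and POU2AF1, a coactivator of antibody genes, had a log2 fold change of -0.49 ± 0.06. IRF4, a transcription factor that plasma cells need, was at 101, 129 and 117 CPM in combination libraries, against 104, 90.3 and 93.3 CPM in DMSO libraries (log2 fold change 0.28 ± 0.13 SE, adjusted p = 0.104). The IRF4 groups overlapped and the test was not passed, although it was with the replicate block (adjusted p = 0.0246), in the fit to the 12 Oci-Ly18 libraries (0.00158) and without combination replicate 1 (0.0473).

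Genes of memory B cells and of exit from the germinal centre rose more often than they fell, with 11 of 21 tested higher, 4 lower and a median of 0.52. TNFRSF13C (ENSG00000159958, chr22:41922032-41926806) encodes the BAFF receptor, a survival receptor of mature B cells, and was at 36.3, 52.8 and 60.5 CPM in combination libraries, against 4.08, 5.33 and 4.77 CPM in DMSO libraries (log2 fold change 3.39 ± 0.17 SE, adjusted p = 1.24e-19). CD44, a hyaluronan receptor that is low on germinal centre cells, was at 17.8, 25.1 and 23.96 CPM in combination libraries, against 4.24, 4.14 and 5.61 CPM in DMSO libraries (log2 fold change 2.24 ± 0.19 SE, adjusted p = 3.42e-13). SKI, a transcriptional corepressor, was at 6.37, 10.8 and 10.2 CPM in combination libraries, against 0.978, 1.83 and 2.03 CPM in DMSO libraries (log2 fold change 2.46 ± 0.21 SE, adjusted p = 2.03e-13). In none of these did the groups overlap. A related list, genes that Polycomb silences in germinal centre B cells, had 11 higher and 3 lower of 24 tested (5 lower with the replicate block), with a median of 0.34. KLF2, which keeps resting lymphocytes circulating, was at 7.96, 9.503 and 10.1 CPM in combination libraries, against 1.71, 2.31 and 2.73 CPM in DMSO libraries (log2 fold change 2.01 ± 0.24 SE, adjusted p = 4.05e-09). Its target S1PR1, the receptor that lets lymphocytes leave tissue, was at 18.4, 17.5 and 16.4 CPM in combination libraries, against 7.502, 7.48 and 5.82 CPM in DMSO libraries (log2 fold change 1.33 ± 0.17 SE, adjusted p = 9.22e-09).

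Genes of B cell identity were mixed, with 7 higher and 10 lower of 25 tested and a median of -0.103. BLNK (ENSG00000095585, chr10:96189171-96271587), the adaptor that links the receptor to its downstream enzymes, was at 149, 199.6 and 179 CPM in combination libraries, against 71.8, 62.9 and 66.5 CPM in DMSO libraries (log2 fold change 1.39 ± 0.08 SE, adjusted p = 1.3e-18). CD72, an inhibitory coreceptor, rose by 0.87 ± 0.07 and CR2, the complement receptor CD21, by 2.07 ± 0.204. The transcription factor EBF1 had a log2 fold change of -0.18 ± 0.07 (adjusted p = 0.0248), a call lost without combination replicate 2 or 3 or DMSO replicate 1 or 2 (adjusted p from 0.0646 to 0.0865). PAX5, the master regulator of B cell identity, had 424, 466 and 447 CPM in combination libraries and 509, 543 and 491 CPM in DMSO libraries (log2 fold change -0.21 ± 0.098 SE, adjusted p = 0.0974), and MS4A1, which encodes CD20, had a log2 fold change of 0.21 ± 0.097 (adjusted p = 0.0961). Neither passed the test, although both did with the replicate block (adjusted p = 0.0159 and 0.015) and in the fit to the 12 Oci-Ly18 libraries.

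Of 30 tested genes of B cell receptor signalling 12 were lower and 6 higher. PIK3CD (ENSG00000171608, chr1:9629889-9729114), the catalytic phosphoinositide kinase of lymphocytes, was at 104, 86.7 and 82.5 CPM in combination libraries, against 208, 221 and 209 CPM in DMSO libraries (log2 fold change -1.23 ± 0.07 SE, adjusted p = 1.37e-18). The rises included genes known to damp the signal, but BLNK, the adaptor that passes it on, rose as well, as given above. PTPN6, the phosphatase SHP-1, was at 17.8, 21.4 and 19.2 CPM in combination libraries, against 2.61, 3.82 and 3.58 CPM in DMSO libraries (log2 fold change 2.53 ± 0.18 SE, adjusted p = 1.57e-15), and SH3BP5, an inhibitor of the kinase BTK, was at 11.6, 26.5 and 24.2 CPM in combination libraries, against 2.77, 1.67 and 2.103 CPM in DMSO libraries (log2 fold change 3.24 ± 0.22 SE, adjusted p = 3.71e-15). The groups of these 3 genes were fully apart.

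The Fc receptor-like and SLAM families of immune surface proteins had 4 higher and 4 lower of 13 tested. FCRL5 was at 23.9, 19.9 and 13.5 CPM in combination libraries, against 6.605, 5.33 and 6.03 CPM in DMSO libraries (log2 fold change 1.67 ± 0.17 SE, adjusted p = 2.64e-11), and CD48, a SLAM ligand, rose by 2.96 ± 0.42. FCRL2, a neighbour of FCRL1, was at 14.3, 6.36 and 6.74 CPM in combination libraries, against 18.999, 21.3 and 22.6 CPM in DMSO libraries (log2 fold change -1.19 ± 0.19 SE, adjusted p = 1.81e-06). As with FCRL1, combination replicate 1 was the nearest to the DMSO libraries. Without DMSO replicate 3 the list had 2 higher in place of 4.

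Antigen presentation genes had a median log2 fold change of 0.164 for MHC class II and -0.148 for class I. The class II values ran from -1.464, which did not pass the test, to 0.619. Of 20 tested MHC class II genes 6 were higher, 0 lower and 14 not called (edgeR, with 1 lower in the fit to the 6 compared libraries). Over all tested genes 21.1% were higher and 14% lower. HLA-DRA, the shared alpha chain of HLA-DR, was at 852, 978 and 919.9 CPM in combination libraries, against 721, 743 and 729.9 CPM in DMSO libraries (log2 fold change 0.33 ± 0.08 SE, adjusted p = 0.000814). HLA-DPB1 rose by 0.46 ± 0.09, HLA-DOA by 0.55 ± 0.07 and HLA-DMB, which loads peptides, by 0.62 ± 0.15. CIITA, the coactivator that switches class II genes on, had a log2 fold change of 0.305 ± 0.099 (adjusted p = 0.0136). That call was lost without combination replicate 2 (adjusted p = 0.0513) and without DMSO replicate 3 (adjusted p = 0.0629). Of 20 tested class I presentation genes 8 were lower and 3 higher, and without combination replicate 3 only 5 were lower. The peptide trimming enzyme gene ERAP1 (-0.51 ± 0.08), the proteasome activator gene PSME2 (-0.54 ± 0.09) and the peptide loading gene TAPBP (-0.28 ± 0.06) fell, while HLA-E rose (0.42 ± 0.08). HLA genes resemble one another closely, so reads could be split among them.

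Of 48 interferon response genes tested, 12 were higher and 12 lower, the higher count being near the 21.1% of all tested genes and the lower one above the 14%, with a median of 0.09. Without combination replicate 3 the lower count was 7. Many such genes carry an interferon-stimulated response element in their promoter. The promoters of 2 members that rose, PARP14 and EPSTI1, and of 2 that fell, HERC5 and IFIH1, are shown because all 4 hold the element. Each is the 250 bases before the gene's start in RefSeq (GRCh38.p14), written 5′ to 3′ on the gene's strand, with matches to GAAA, any 2 bases and GAAA again, on either strand, in capitals. They lie at chr3:122680589-122680838, plus strand (PARP14), chr13:42992242-42992491, minus strand (EPSTI1), chr4:88456869-88457118, plus strand (HERC5) and chr2:162318685-162318934, minus strand (IFIH1), and these 4 genes were chosen after their values were seen.
PARP14: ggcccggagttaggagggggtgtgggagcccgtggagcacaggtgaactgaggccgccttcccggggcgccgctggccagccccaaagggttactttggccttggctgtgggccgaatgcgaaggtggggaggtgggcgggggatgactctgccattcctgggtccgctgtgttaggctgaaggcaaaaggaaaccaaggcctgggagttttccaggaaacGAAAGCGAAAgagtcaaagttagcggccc
EPSTI1: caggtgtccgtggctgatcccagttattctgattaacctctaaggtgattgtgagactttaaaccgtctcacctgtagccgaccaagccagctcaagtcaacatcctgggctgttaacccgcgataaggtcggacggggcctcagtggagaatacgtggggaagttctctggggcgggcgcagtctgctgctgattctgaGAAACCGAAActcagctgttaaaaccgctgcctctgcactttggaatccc
HERC5: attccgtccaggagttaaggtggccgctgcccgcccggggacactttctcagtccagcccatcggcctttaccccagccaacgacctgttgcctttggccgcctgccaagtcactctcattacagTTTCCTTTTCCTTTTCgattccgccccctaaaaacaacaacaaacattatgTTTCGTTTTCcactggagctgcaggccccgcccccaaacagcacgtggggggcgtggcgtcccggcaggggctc
IFIH1: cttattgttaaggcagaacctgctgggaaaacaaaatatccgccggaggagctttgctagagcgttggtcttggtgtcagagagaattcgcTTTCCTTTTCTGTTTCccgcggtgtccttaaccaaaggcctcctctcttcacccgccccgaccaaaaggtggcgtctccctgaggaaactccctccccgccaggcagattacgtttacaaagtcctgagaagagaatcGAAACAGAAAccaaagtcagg
Of the 48 interferon genes 36 had a promoter in the RefSeq table, and 19 of the 36 held the element, against 2.51% of the 11911 tested genes with a promoter there. It was found in 5 of 11 promoters of members that rose, 3 of 9 of members that fell and 11 of 16 of members not called.

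PARP14, a mono-ADP-ribosyltransferase of the interferon response, was at 46.6, 47.99 and 44.1 CPM in combination libraries, against 23.9, 26.4 and 23.6 CPM in DMSO libraries (log2 fold change 0.91 ± 0.14 SE, adjusted p = 1.1e-06). EPSTI1 was at 4.59, 4.398 and 4.304 CPM in combination libraries, against 1.06, 1.27 and 0.981 CPM in DMSO libraries (log2 fold change 2.003 ± 0.33 SE, adjusted p = 5.45e-06). HERC5, the ligase that attaches the ubiquitin-like protein ISG15, was at 39.01, 28.5 and 30.6 CPM in combination libraries, against 47.05, 49.9 and 55.4 CPM in DMSO libraries (log2 fold change -0.63 ± 0.102 SE, adjusted p = 3.49e-06). That these genes moved in both directions follows from how they were picked, since members of each direction with the element were sought. IFIH1, a sensor of double-stranded RNA, had 10.8, 8.796 and 8.67 CPM in combination libraries and 10.9, 12.3 and 14.4 CPM in DMSO libraries (log2 fold change -0.41 ± 0.13 SE, adjusted p = 0.0111), with combination replicate 1 just below the lowest DMSO library.

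By the fixed rule the members with the smallest adjusted p were PARP9, DTX3L, OAS2 and MX1. MX1, an antiviral GTPase, was at 24.7, 24.3 and 29.7 CPM in combination libraries, against 6.36, 5.81 and 6.52 CPM in DMSO libraries (log2 fold change 2.07 ± 0.24 SE, adjusted p = 9.99e-09). OAS2, an enzyme that senses viral RNA, was at 24.9, 20.03 and 23.3 CPM in combination libraries, against 39.5, 44.2 and 41.8 CPM in DMSO libraries (log2 fold change -0.87 ± 0.104 SE, adjusted p = 2.72e-09). PARP9 and DTX3L, which form 1 complex and overlap at their starts, rose by 1.505 ± 0.103 and 1.11 ± 0.11. The groups were apart in all 4.

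Among genes of NF-kB, a transcription factor of immune activation, 8 of 26 tested were lower and 5 higher. RELB, a subunit of the alternative pathway, was at 11.3, 11.3 and 7.77 CPM in combination libraries, against 26.3, 25.5 and 31.1 CPM in DMSO libraries (log2 fold change -1.46 ± 0.14 SE, adjusted p = 8.83e-12). SOD2, the mitochondrial superoxide dismutase, had a log2 fold change of -0.43 ± 0.07, whereas TRAF1, a TNF receptor adaptor, rose by 1.62 ± 0.203 and CCL3, a chemokine, by 1.93 ± 0.29 on the log2 scale. The TNF receptor family had 7 higher and 3 lower of 17 tested, and 1 lower without combination replicate 2 or DMSO replicate 3. Beside TNFRSF13C, the rises included TNFRSF14, whose product HVEM restrains lymphocytes (1.34 ± 0.26), and TNFRSF11A, the receptor RANK (0.83 ± 0.16).

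Cytokine receptors and their feedback inhibitors had 13 higher and 9 lower of 28 tested, and 5 lower without DMSO replicate 3. IL4R, the receptor of interleukin-4, was at 26.5, 28.7 and 25.8 CPM in combination libraries, against 47.9, 49.9 and 43.3 CPM in DMSO libraries (log2 fold change -0.803 ± 0.11 SE, adjusted p = 1.72e-07). IL7R, the receptor of interleukin-7, was at 452, 394 and 404 CPM in combination libraries, against 321, 267 and 272 CPM in DMSO libraries (log2 fold change 0.54 ± 0.07 SE, adjusted p = 3.75e-08), and STAT3, a transcription factor downstream of several cytokines, rose by 0.46 ± 0.07. IL10RA, the interleukin-10 receptor, rose at a low level, to 1.102, 2.04 and 2.18 CPM in combination libraries, against 0.0815, 0.159 and 0.35 CPM in DMSO libraries. Its log2 fold change was 3.05 ± 0.41, or 3.77 without DMSO replicate 3.

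Migration and adhesion receptors had 12 higher and 5 lower of 26 tested, with a median of 0.399. The lower count was 3 without combination replicate 2 or DMSO replicate 3. ITGB2, the shared beta chain of leukocyte integrins, was at 3.67, 5.73 and 4.37 CPM in combination libraries, against 0.245, 0.716 and 0.841 CPM in DMSO libraries (log2 fold change 2.87 ± 0.26 SE, adjusted p = 8.74e-13). ITGA6, a laminin receptor subunit, was at 27.7, 34.6 and 36.03 CPM in combination libraries, against 11.99, 10.7 and 12.8 CPM in DMSO libraries (log2 fold change 1.47 ± 0.16 SE, adjusted p = 4.95e-10), and ICAM3, an integrin ligand, rose by 1.54 ± 0.18.

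The phagocyte NADPH oxidase, which B cells also use to make superoxide, had 1 gene higher and 2 lower of 7. CYBB, its membrane catalytic subunit, was at 7.84, 3.93 and 4.18 CPM in combination libraries, against 12.6, 12.7 and 10.2 CPM in DMSO libraries (log2 fold change -1.13 ± 0.19 SE, adjusted p = 8.66e-06). NCF1, a cytosolic subunit, had a log2 fold change of -1.45 ± 0.19, a value made uncertain by its near-identical pseudogenes. RAC2, the GTPase of the complex, rose by 0.598 ± 0.08. CYBA, CYBC1 and NCF4 did not pass the test, with log2 fold changes of 0.22, 0.09 and -0.04.

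The developmental genes that Polycomb holds silent in most adult tissues rose in number. Of 70 listed, 66 were in the table and 39 were tested, of which 21 were higher and 1 lower, with a median of 0.96. The single lower call was absent without combination replicate 2 or 3 and without DMSO replicate 1 or 2. Genes pass the filter on low counts if any 1 group of the series expresses them, so the tested members need not stand for the rest. Beside SOX2, the homeobox gene HOXA10 was at 7.04, 11.4 and 11.3 CPM in combination libraries, against 2.12, 3.02 and 3.01 CPM in DMSO libraries (log2 fold change 1.85 ± 0.202 SE, adjusted p = 5.34e-09). MEIS2, a partner of HOX proteins, rose by 0.803 ± 0.12, and HOXC4 by 0.64 ± 0.095. Groups were apart in each of these genes.

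Genes for collagens, laminins and integrins had 15 higher and 1 lower of 30 tested (2 lower without DMSO replicate 1), with a median of 1.303. COL27A1, a fibrillar collagen, was at 98.96, 131 and 145 CPM in combination libraries, against 50.8, 45.8 and 56.8 CPM in DMSO libraries (log2 fold change 1.29 ± 0.098 SE, adjusted p = 1.35e-14). FN1, fibronectin, was at 9.12, 14.5 and 13.6 CPM in combination libraries, against 1.96, 2.31 and 3.15 CPM in DMSO libraries (log2 fold change 2.302 ± 0.24 SE, adjusted p = 1.76e-09), and COL1A1, a chain of collagen I, rose by 2.16 ± 0.26.

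**Figure D3:**
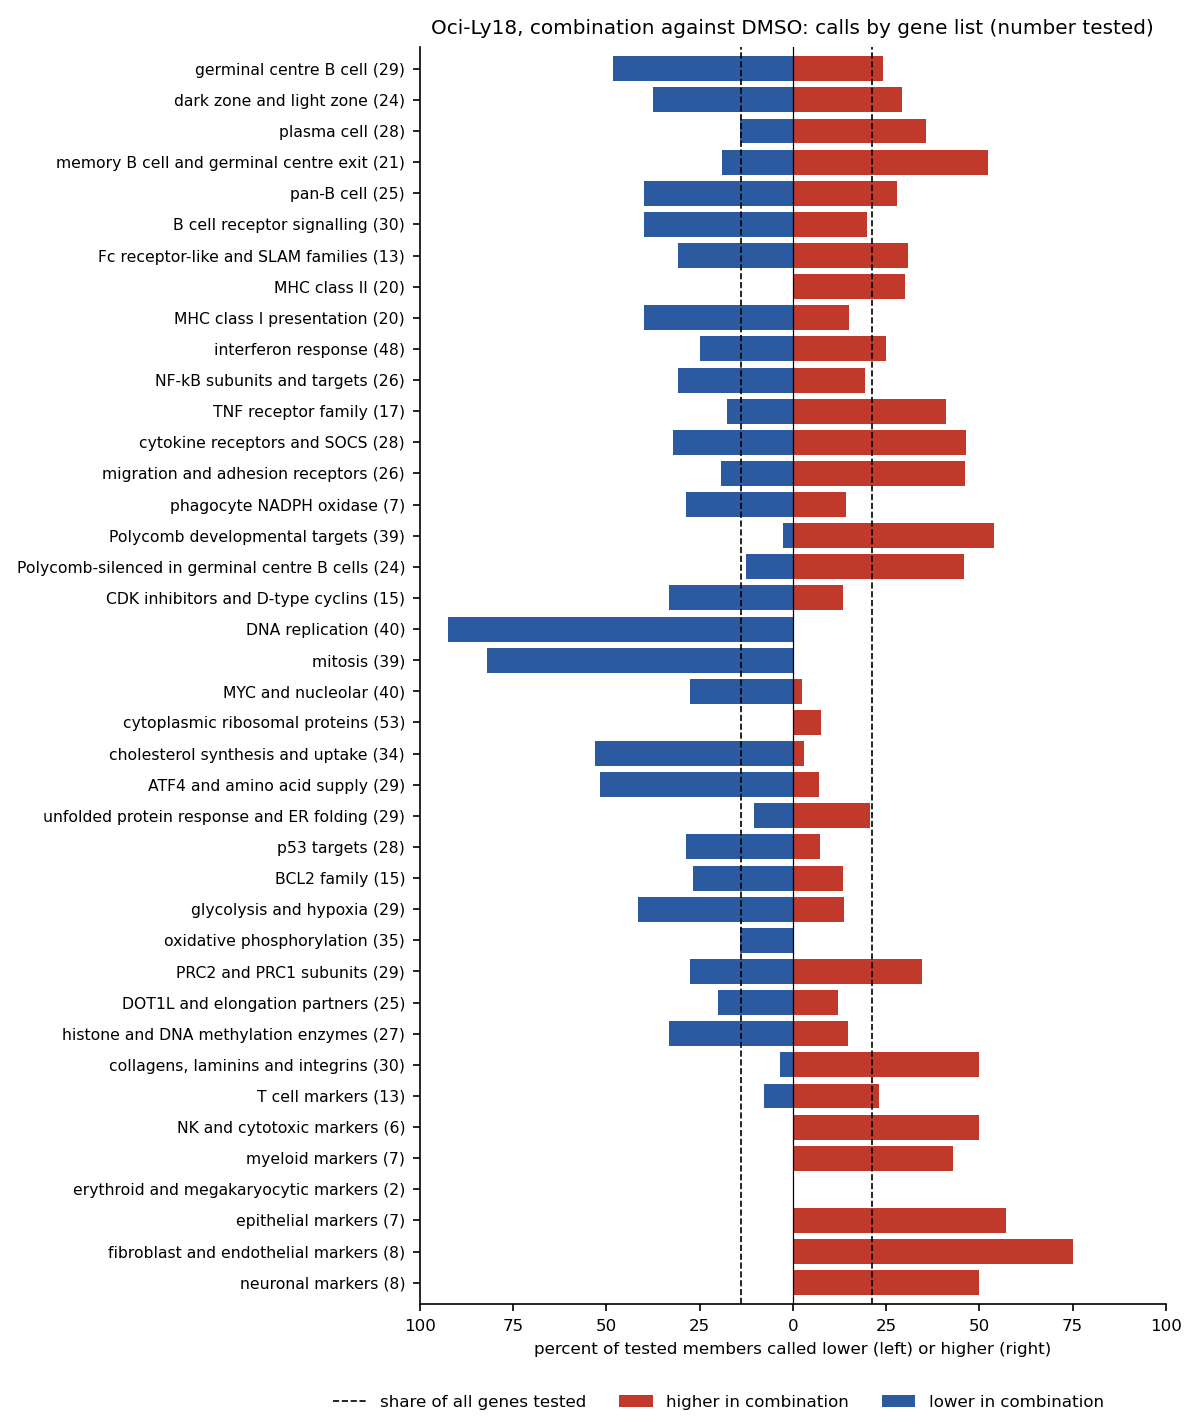
Share of tested members called higher (right, red) and lower (left, blue) with the combination in 40 gene lists, in percent of tested members, with dashed lines at the shares over all tested genes, 21.1% higher and 14% lower. DNA replication and mitosis have no member called higher, and the collagen and Polycomb developmental lists have most of their calls on the higher side.

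Tested markers of other cell types were examined by list, beside 21.1% higher and 14% lower over all tested genes. The lists hold 18 T cell, 16 NK and cytotoxic, 18 myeloid, 15 epithelial, 17 fibroblast and endothelial, 15 neuronal and 17 erythroid and megakaryocytic markers. A marker can pass the low-count filter through any group of the series, the combination group included, so the tested members need not stand for their lists. T cell markers had 3 higher and 1 lower of 13 tested, NK and cytotoxic markers 3 higher and 0 lower of 6, myeloid markers 3 and 0 of 7, epithelial markers 4 and 0 of 7, fibroblast and endothelial markers 6 and 0 of 8, neuronal markers 4 and 0 of 8, and erythroid and megakaryocytic markers 0 and 0 of 2. Without combination replicate 2, DMSO replicate 1 or DMSO replicate 2 the fibroblast and endothelial count was 3 higher. The summed levels of the tested members were higher in every combination library than in any DMSO library, except for T cell and for erythroid and megakaryocytic markers. NK and cytotoxic markers summed to 27.56 to 31.92 CPM in combination libraries and 19.57 to 20.37 CPM in DMSO libraries. T cell markers summed to 68.59 to 81.68 CPM in combination libraries and 65.88 to 72.62 CPM in DMSO libraries, epithelial markers to 11.39 to 15.79 CPM in combination libraries and 3.501 to 4.159 CPM in DMSO libraries, and fibroblast and endothelial markers to 20.7 to 21.45 CPM in combination libraries and 9.814 to 10.34 CPM in DMSO libraries. Myeloid markers summed to 14.82 to 19.16 CPM in combination libraries and 6.239 to 7.583 CPM in DMSO libraries, and neuronal markers to 81.6 to 95.53 CPM in combination libraries and 45.42 to 48.51 CPM in DMSO libraries. Some markers had no count in any of the 6 libraries, among them CD2, CD3D, CD3G, CD5 and CD7 of T cells and GZMA, GZMB and NCR1 of NK cells. The same held for CD68 and MPO of myeloid cells, EPCAM and KRT14 of epithelium, LUM and KDR of fibroblasts and endothelium, and DCX and RBFOX3 of neurons. Other markers had a few counts, such as CD3E and CD4, GNLY and NKG7, CD14 and LYZ, CDH1 and KRT19, and COL3A1 and VWF. The neuronal marker GAP43 had 14 counts in combination libraries and 0 in DMSO libraries.

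Within those lists, a few genes changed clearly. The kinase LCK, used by T cells and some B cell tumours, was at 13.7, 15.2 and 14.5 CPM in combination libraries, against 6.12, 7.08 and 7.43 CPM in DMSO libraries (log2 fold change 1.06 ± 0.13 SE, adjusted p = 3.04e-09), while the related T cell kinase ZAP70 had a log2 fold change of -0.43 ± 0.097. VCAN, the proteoglycan versican, was at 5.45, 7.93 and 6.102 CPM in combination libraries, against 0.326, 0.875 and 0.771 CPM in DMSO libraries (log2 fold change 3.27 ± 0.33 SE, adjusted p = 4.36e-10). KRT8 and KRT18, the paired keratins of simple epithelium, rose by 1.59 ± 0.25 and 2.396 ± 0.31, although these genes overlap each other. MAP2, a microtubule protein of neurons, was at 80.8, 65.9 and 67.3 CPM in combination libraries, against 34.7, 36.8 and 38.3 CPM in DMSO libraries (log2 fold change 0.96 ± 0.13 SE, adjusted p = 7.9e-08). The groups did not overlap in any of these genes.

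Replication genes fell almost as a whole. Of 40 tested, 37 were lower and 0 higher (edgeR), with a median of -0.47 and a narrow range from -0.91 to -0.08. The promoters of E2F2 and MCM6 are shown because both genes fell and both hold a site for E2F, the transcription factor family of the start of replication. Capitals mark matches to TTTGGCGC, TTTCCCGC, TTTGCCGC or TTTCGCGC on either strand, and the windows are 250 bases of GRCh38.p14 at chr1:23531234-23531483, minus strand (E2F2) and chr2:135876444-135876693, minus strand (MCM6), written 5′ to 3′ on the gene's strand. The HMMR promoter at chr5:163460382-163460631, plus strand is shown for a mitosis gene that fell, with matches to the cell cycle homology region TTTGAA, a shared element of mitotic genes, in capitals. MCM6 was chosen after its values were seen.
E2F2: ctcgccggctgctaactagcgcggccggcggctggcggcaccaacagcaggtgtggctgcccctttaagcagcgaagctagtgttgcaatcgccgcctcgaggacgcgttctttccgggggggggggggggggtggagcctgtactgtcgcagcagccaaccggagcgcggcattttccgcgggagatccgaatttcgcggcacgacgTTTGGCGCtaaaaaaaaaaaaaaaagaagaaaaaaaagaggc
MCM6: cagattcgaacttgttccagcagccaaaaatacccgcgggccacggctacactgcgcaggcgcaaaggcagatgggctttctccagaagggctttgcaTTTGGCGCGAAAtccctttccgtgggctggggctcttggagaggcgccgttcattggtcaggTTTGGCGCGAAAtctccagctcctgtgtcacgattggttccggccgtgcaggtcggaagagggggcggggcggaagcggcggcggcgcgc
HMMR: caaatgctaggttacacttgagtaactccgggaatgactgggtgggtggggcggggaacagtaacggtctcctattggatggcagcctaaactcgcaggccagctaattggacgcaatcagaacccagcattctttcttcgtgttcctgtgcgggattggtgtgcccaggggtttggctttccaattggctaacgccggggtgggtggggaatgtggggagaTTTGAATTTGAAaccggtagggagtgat
An E2F match stood in 15 of 35 promoters of tested replication genes and in 14 of the 32 of genes that fell, against 4.33% of the 11911 tested genes with a promoter in the table. The TTTGAA element stood in 18 of 32 promoters of tested mitosis genes and in 14 of the 26 of genes that fell, against 8.75% of the same 11911.

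E2F2 (ENSG00000007968, chr1:23506438-23531233), an activator of replication genes, was at 98.3, 83.2 and 81.6 CPM in combination libraries, against 162, 169 and 164 CPM in DMSO libraries (log2 fold change -0.91 ± 0.07 SE, adjusted p = 2.34e-14). MCM6, a subunit of the helicase that opens replication origins, was at 216, 219 and 202 CPM in combination libraries, against 287, 332 and 303 CPM in DMSO libraries (log2 fold change -0.53 ± 0.06 SE, adjusted p = 9.01e-10). MCM2, another subunit, was at 240.2, 226 and 226 CPM in combination libraries, against 327, 364 and 337 CPM in DMSO libraries (log2 fold change -0.57 ± 0.06 SE, adjusted p = 3.22e-11). These were modest falls with little spread. CDC45, which activates that helicase, had a log2 fold change of -0.63 ± 0.06, and ORC1, which marks origins, -0.72 ± 0.07.

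Mitosis genes followed the same direction, with 32 lower and 0 higher of 39 tested (edgeR) and a median of -0.41. HMMR, a spindle protein, was at 135, 112 and 116 CPM in combination libraries, against 197, 209 and 194 CPM in DMSO libraries (log2 fold change -0.72 ± 0.08 SE, adjusted p = 6.3e-10). CCNA2, the cyclin of DNA synthesis and early mitosis, was at 130.1, 123 and 122 CPM in combination libraries, against 174, 193 and 181 CPM in DMSO libraries (log2 fold change -0.55 ± 0.06 SE, adjusted p = 2.87e-10). KIF2C, a motor that corrects spindle attachments, and CCNB2, a mitotic cyclin, had log2 fold changes of -0.66 ± 0.07 and -0.57 ± 0.07. The groups did not overlap in any of these genes.

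No inhibitor of cyclin-dependent kinases was called higher. Of 15 tested inhibitors and D-type cyclins 5 were lower and 2, the cyclins CCND1 and CCND2, higher, and with the replicate block 8 were lower. CDKN1B, the inhibitor p27, was at 41.5, 44.1 and 43.2 CPM in combination libraries, against 67.6, 60.6 and 60.9 CPM in DMSO libraries (log2 fold change -0.55 ± 0.09 SE, adjusted p = 3.39e-06). CDKN2C, the inhibitor p18, was at 72.7, 64.8 and 65.3 CPM in combination libraries, against 132, 149 and 140.5 CPM in DMSO libraries (log2 fold change -1.06 ± 0.09 SE, adjusted p = 2.92e-13). CDKN1A, the p53-induced inhibitor p21, did not pass the test, with 53.7, 39.9 and 53.2 CPM in combination libraries and 47.3, 41.1 and 67.2 CPM in DMSO libraries (log2 fold change -0.08 ± 0.17 SE, adjusted p = 0.763). The D-type cyclins went separate ways, since CCND3 fell as above while CCND2 was at 5.08, 8.64 and 8.35 CPM in combination libraries, against 0.571, 0.716 and 0.981 CPM in DMSO libraries (log2 fold change 3.24 ± 0.28 SE, adjusted p = 1.05e-12).

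MYC (ENSG00000136997, chr8:127735434-127742951), the growth-promoting transcription factor, was at 622, 742 and 712 CPM in combination libraries, against 499, 510.0 and 517 CPM in DMSO libraries (log2 fold change 0.44 ± 0.09 SE, adjusted p = 9.65e-05). It was the only one of 40 MYC-related and nucleolar genes called higher, while 11 were lower, with a median of -0.18. With the replicate block 20 were lower, and 29 in the fit to the 12 Oci-Ly18 libraries. LDHA, lactate dehydrogenase, was at 748, 755 and 718 CPM in combination libraries, against 1016, 1087 and 979 CPM in DMSO libraries (log2 fold change -0.47 ± 0.08 SE, adjusted p = 3.22e-06), and the ribosome assembly genes BYSL and UTP4 had log2 fold changes of -0.42 ± 0.09 and -0.38 ± 0.07. Cytoplasmic ribosomal protein genes had 4 higher and 0 lower of 53 tested (edgeR), with a median of 0.16. The higher count was 2 without combination replicate 2 or DMSO replicate 1, 14 with the replicate block and 37 in the fit to the 12 Oci-Ly18 libraries. RPL22 rose by 0.37 ± 0.07 and RPL12 by 0.36 ± 0.099, but pseudogene copies make such values uncertain.

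Cholesterol and fatty acid genes fell more often than they rose, 18 lower and 1 higher of 34 tested, with a median of -0.305 (28 lower in the fit to the 12 Oci-Ly18 libraries). FADS2, a fatty acid desaturase, was at 116, 121 and 136 CPM in combination libraries, against 182, 189 and 197 CPM in DMSO libraries (log2 fold change -0.605 ± 0.09 SE, adjusted p = 2.81e-07). ELOVL6, a fatty acid elongase, had a log2 fold change of -0.66 ± 0.096, and the sterol synthesis gene LSS had -0.54 ± 0.101. Genes of amino acid supply under the transcription factor ATF4 had 15 lower and 2 higher of 29, with a median of -0.27. Between 0 and 1 were higher without combination replicate 2 or 3 or any DMSO library. The transporter gene SLC1A5 was at 109.6, 118 and 117 CPM in combination libraries, against 163, 174 and 179 CPM in DMSO libraries (log2 fold change -0.58 ± 0.09 SE, adjusted p = 5.6e-07). The tRNA synthetase genes GARS1 and AARS1 had log2 fold changes of -0.52 ± 0.07 and -0.53 ± 0.08, and MTHFD2, of mitochondrial one-carbon metabolism, -0.42 ± 0.07.

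Glycolysis and hypoxia genes had 12 lower and 4 higher of 29, with a median of -0.24. PKM, pyruvate kinase, was at 912, 835 and 802 CPM in combination libraries, against 1279, 1399 and 1306 CPM in DMSO libraries (log2 fold change -0.64 ± 0.07 SE, adjusted p = 5.02e-11), and the glucose transporter gene SLC2A1 and the phosphofructokinase gene PFKP had log2 fold changes of -0.74 ± 0.08 and -0.56 ± 0.07. ENO2, the neuronal enolase, rose to 8.63, 12.3 and 11.3 CPM in combination libraries, against 1.22, 1.27 and 1.61 CPM in DMSO libraries (log2 fold change 2.95 ± 0.21 SE, adjusted p = 4.02e-16). Oxidative phosphorylation genes had 5 lower and 0 higher of 35 (edgeR), with a median of -0.09. The lower count was 3 without combination replicate 1 or 3 or DMSO replicate 2 or 3, and 10 in the fit to the 12 Oci-Ly18 libraries. ATP5F1B, an ATP synthase subunit, had a log2 fold change of -0.24 ± 0.06, and the respiratory chain genes NDUFS1 and COX5A had -0.22 ± 0.06 and -0.31 ± 0.09.

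The unfolded protein response, which adjusts the folding capacity of the endoplasmic reticulum, had 6 higher and 3 lower of 29 genes. The higher count was near the 21.1% of all tested genes and the lower one below the 14%. Without combination replicate 3 or DMSO replicate 1 there were 3 higher. ERN1, its sensor kinase, was at 12.98, 14.2 and 15.4 CPM in combination libraries, against 7.75, 6.92 and 8.97 CPM in DMSO libraries (log2 fold change 0.84 ± 0.13 SE, adjusted p = 4.39e-07). CREB3L2, a transcription factor of the secretory pathway, rose by 1.03 ± 0.18. EDEM1, which removes misfolded glycoproteins, was at 79.8, 77.6 and 79.8 CPM in combination libraries, against 152, 156 and 163 CPM in DMSO libraries (log2 fold change -0.99 ± 0.09 SE, adjusted p = 7.78e-13), and the disulphide isomerase gene PDIA3 had a log2 fold change of -0.38 ± 0.07.

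Targets of p53 had 8 lower and 2 higher of 28 tested. Without combination replicate 2 the counts were 5 lower and 5 higher, and with the replicate block 5 were higher. MDM2, the ligase that degrades p53, was at 302, 242 and 283 CPM in combination libraries, against 446, 430.4 and 456 CPM in DMSO libraries (log2 fold change -0.69 ± 0.08 SE, adjusted p = 2.92e-09). TP53INP1, a stress-induced regulator of cell death, was at 108, 111 and 114 CPM in combination libraries, against 40.4, 33.02 and 40.7 CPM in DMSO libraries (log2 fold change 1.54 ± 0.17 SE, adjusted p = 3.8e-09). AEN, a nuclease, and DDB2, of DNA damage recognition, had log2 fold changes of -0.48 ± 0.08 and -0.59 ± 0.12. The BCL2 family, which decides on cell death at mitochondria, had 4 lower and 2 higher of 15, with 1 higher without DMSO replicate 1 and 4 higher with the replicate block. BCL2 (ENSG00000171791, chr18:63123346-63320128), its founding survival member, was at 1009, 1110.5 and 1042 CPM in combination libraries, against 729, 743 and 729.6 CPM in DMSO libraries (log2 fold change 0.52 ± 0.13 SE, adjusted p = 0.00199). The survival gene BCL2L1 (-0.46 ± 0.08) and the death-promoting genes BAX (-0.37 ± 0.09) and HRK (-0.38 ± 0.09) fell.

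Among non-coding genes with a symbol, those with the largest changes were expressed at a few CPM. SERTAD4-AS1 was at 4.29, 7.304 and 7.07 CPM in combination libraries, against 0.897, 0.796 and 0.701 CPM in DMSO libraries (log2 fold change 2.95 ± 0.35 SE, adjusted p = 1.43e-07). LINC01977, LINC01480 and the pseudogene CMAHP rose by 2.15 ± 0.26, 2.07 ± 0.21 and 1.83 ± 0.19. MIR193BHG, the host transcript of a microRNA, was at 1.29, 1.18 and 2.06 CPM in combination libraries, against 6.69, 3.501 and 5.54 CPM in DMSO libraries (log2 fold change -1.78 ± 0.28 SE, adjusted p = 1.33e-06). PRAMENP, LINC01013 and BMS1P23 had log2 fold changes of -1.93 ± 0.22, -1.84 ± 0.23 and -1.303 ± 0.21.

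The Oci-Ly18 response was then set against that of the other lines by testing, gene by gene, the Oci-Ly18 effect minus the mean effect in Oci-Ly7, Oci-Ly8 and SUDHL6. It was higher in Oci-Ly18 for 1336 genes (7.53%) and lower for 1869 (10.5%). FNBP1, among the largest rises in Oci-Ly18 with a log2 fold change of 4.34, had -1.03 in Oci-Ly7, -0.46 in Oci-Ly8 and -0.77 in SUDHL6 (difference 5.09 ± 0.32 SE, adjusted p = 6.86e-15). ANXA6 had 3.56 in Oci-Ly18, and 0.401 in Oci-Ly7, -0.25 in Oci-Ly8 and 0.64 in SUDHL6 (difference 3.301 ± 0.15 SE, adjusted p = 8.66e-23). PREX1, an activator of the GTPase RAC, was at 25.1, 36.05 and 34.1 CPM in combination libraries, against 6.52, 5.41 and 3.29 CPM in DMSO libraries of Oci-Ly18 (log2 fold change 2.66 ± 0.16), with -0.22 in Oci-Ly7, -0.49 in Oci-Ly8 and -0.36 in SUDHL6 (difference 3.01 ± 0.17 SE, adjusted p = 4.63e-18). NME4 had 2.104 in Oci-Ly18, and -0.37 in Oci-Ly7, -0.49 in Oci-Ly8 and -0.47 in SUDHL6 (difference 2.55 ± 0.15 SE, adjusted p = 4.63e-18). For these 4 genes the rise of Oci-Ly18 was larger than each effect in the other lines.

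BLNK and CABLES1 were also higher by this test, and BLNK had 1.39 in Oci-Ly18, and -0.25 in Oci-Ly7, 0.97 in Oci-Ly8 and -0.21 in SUDHL6 (difference 1.22 ± 0.09 SE, adjusted p = 1.93e-14). CABLES1 had 2.47 in Oci-Ly18, and 0.14 in Oci-Ly7, -0.66 in Oci-Ly8 and 2.32 in SUDHL6 (difference 1.87 ± 0.12 SE, adjusted p = 4.32e-17), so that SUDHL6 came close to Oci-Ly18. FCER2 was 5.08 in Oci-Ly18, and -0.85 in Oci-Ly7, 2.02 in Oci-Ly8 and 1.25 in SUDHL6 (difference 4.28 ± 0.399 SE, adjusted p = 7.09e-11), and TNFRSF13C was 3.39 in Oci-Ly18, and 1.75 in Oci-Ly7, 0.58 in Oci-Ly8 and 0.802 in SUDHL6 (difference 2.35 ± 0.19 SE, adjusted p = 6.8e-13). For SOX2, PGAM2, TFAP2B and FKBP10 edgeR gave the difference an adjusted p of 1, with an SE far above the difference itself. DESeq2 called all 4 higher in Oci-Ly18, by log2 differences of 3.805, 5.108, 3.804 and 1.974 (adjusted p = 5.52e-05, 6.51e-09, 0.00114 and 0.0412), so the call depends on the tool.

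The fall of germinal centre regulators in Oci-Ly18 went with other changes in the other lines. BCL6 had a log2 fold change of -1.24 in Oci-Ly18, and -0.66 in Oci-Ly7, 0.33 in Oci-Ly8 and 0.88 in SUDHL6 (difference -1.42 ± 0.15 SE, adjusted p = 8.83e-10). MYBL1 had -1.304 in Oci-Ly18, and -1.06 in Oci-Ly7, 0.45 in Oci-Ly8 and 1.09 in SUDHL6 (difference -1.46 ± 0.16 SE, adjusted p = 2.71e-09). In both genes Oci-Ly7 moved in the same direction as Oci-Ly18, and the other two in the opposite one. HMCES and CCND3 were lower by the same test, HMCES with -0.904 in Oci-Ly18, and 0.06 in Oci-Ly7, 1.39 in Oci-Ly8 and 0.51 in SUDHL6 (difference -1.56 ± 0.09 SE, adjusted p = 4.63e-18). MYC had 0.44 in Oci-Ly18, and -0.19 in Oci-Ly7, -0.23 in Oci-Ly8 and -0.87 in SUDHL6 (difference 0.88 ± 0.105 SE, adjusted p = 8.35e-09). PRDM1, in turn, rose in Oci-Ly18 by 1.26, beside 3.81 in Oci-Ly7, 1.44 in Oci-Ly8 and 0.72 in SUDHL6, and the difference did not pass (difference -0.73 ± 0.32 SE, adjusted p = 0.116), although it did with the replicate block (adjusted p = 0.013).

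Genes with a lower effect in Oci-Ly18 were chosen by the smallest p of the difference and not by its size. PHYH, a peroxisomal enzyme, was at -0.75 in Oci-Ly18, and 1.09 in Oci-Ly7, 1.595 in Oci-Ly8 and 0.48 in SUDHL6 (difference -1.81 ± 0.11 SE, adjusted p = 9.47e-18). SMAD6, an inhibitor of BMP signalling, was at -1.699 in Oci-Ly18, and 0.52 in Oci-Ly7, 1.68 in Oci-Ly8 and 0.92 in SUDHL6 (difference -2.74 ± 0.18 SE, adjusted p = 3.83e-16). Both fell in Oci-Ly18 and were above 0 in each other line. OPTN, an autophagy receptor, had a difference that rested mostly on Oci-Ly7, with -0.49 in Oci-Ly18, and 3.55 in Oci-Ly7, 0.07 in Oci-Ly8 and 0.25 in SUDHL6 (difference -1.78 ± 0.11 SE, adjusted p = 6.54e-17). RUBCNL, another autophagy gene, had -0.905 in Oci-Ly18, and -0.15 in Oci-Ly7, 0.04 in Oci-Ly8 and 0.84 in SUDHL6 (difference -1.15 ± 0.08 SE, adjusted p = 6.37e-16).

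**Figure D4:**
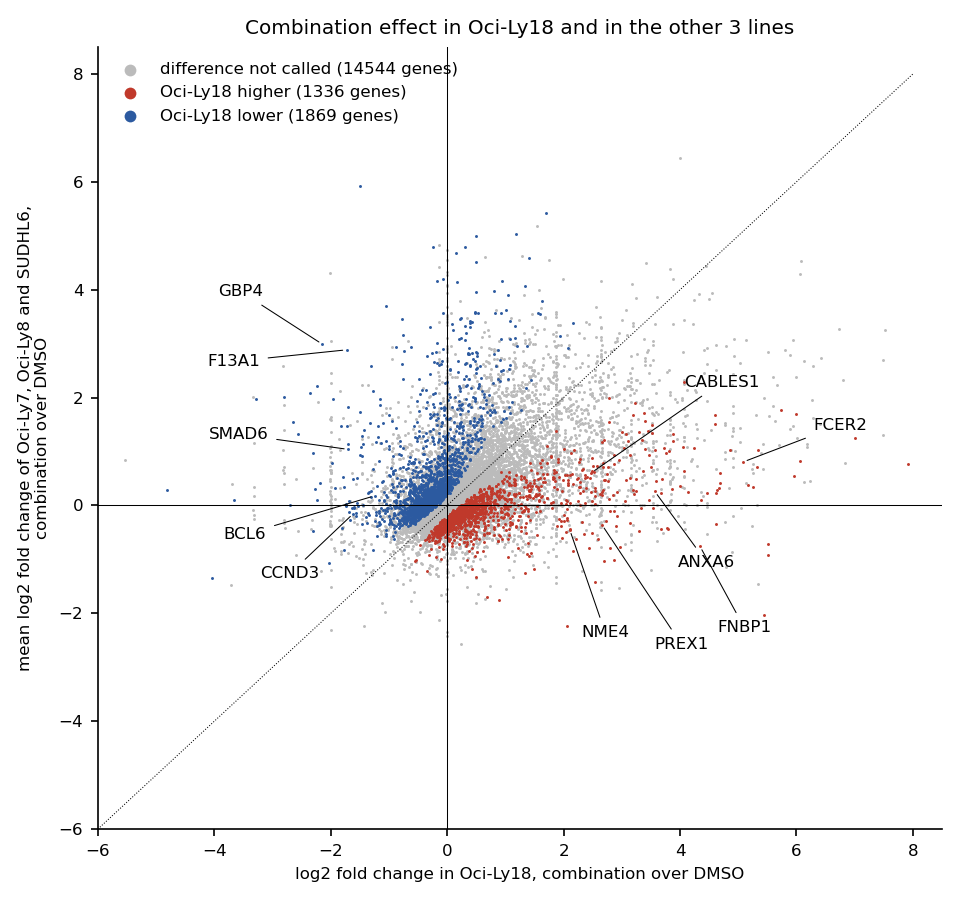
Log2 fold change of the combination against DMSO in Oci-Ly18 (horizontal axis) and the mean of that in Oci-Ly7, Oci-Ly8 and SUDHL6 (vertical axis), 1 point per tested gene, with a dotted line where both are equal. Red points are the 1336 genes with a higher and blue points the 1869 with a lower effect in Oci-Ly18 by the test of the difference, among them FNBP1 and ANXA6 to the right of the line and BCL6 and SMAD6 to the left of it.

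Cell cycle, growth and interferon genes are given by line as counts and medians, without a test of the groups. Over all tested genes 7.53% were higher and 10.5% lower by the test of the difference. For DNA replication genes the median log2 fold change was -0.47 in Oci-Ly18, -0.04 in Oci-Ly7, 0.01 in Oci-Ly8 and -0.42 in SUDHL6, so SUDHL6 was near Oci-Ly18. All 40 were below 0 in Oci-Ly18, beside 25, 18 and 39 in Oci-Ly7, Oci-Ly8 and SUDHL6, and 25 of the 40 were lower by the test of the difference. For mitosis genes the medians were -0.41 in Oci-Ly18, 0.04 in Oci-Ly7, 0.06 in Oci-Ly8 and -0.25 in SUDHL6, and 29 of 39 were lower by that test. MYC-related and nucleolar genes had -0.18 in Oci-Ly18, -0.22 in Oci-Ly7, -0.40 in Oci-Ly8 and -0.59 in SUDHL6, with 17 of 40 higher by that test. Interferon response genes had 0.09 in Oci-Ly18, 0.80 in Oci-Ly7, 1.21 in Oci-Ly8 and 0.19 in SUDHL6, and 24 of 48 were lower and 1 higher by the test. Of the 29 genes of the unfolded protein response 18 were higher and 1 lower by the test, with a median of 0.09 in Oci-Ly18 beside -0.18 for the mean of the other lines.

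**Figure D5:**
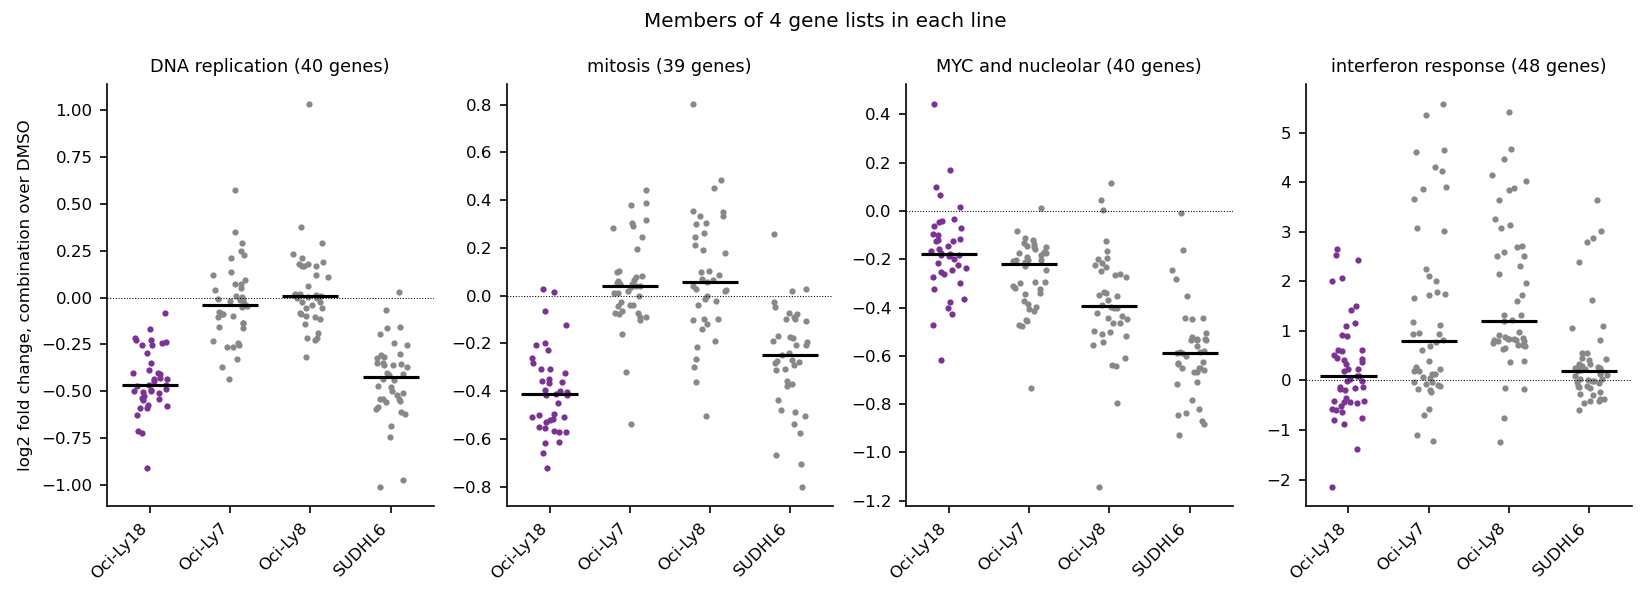
Log2 fold change of the combination against DMSO for each tested member (points) of the DNA replication, mitosis, MYC and nucleolar, and interferon response lists in Oci-Ly18, Oci-Ly7, Oci-Ly8 and SUDHL6, with horizontal lines at the medians. Replication and mitosis members lie mostly below 0 in Oci-Ly18 and SUDHL6 and around 0 in Oci-Ly7 and Oci-Ly8, and interferon members lie around 0 in Oci-Ly18, with the highest median in Oci-Ly8.

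Within Oci-Ly18 the combination was also tested against each inhibitor alone, with the same combination libraries entering each comparison. Against EZH2i, 1365 genes (7.69%) were higher and 905 (5.1%) lower with the combination (1420 lower with the replicate block). Against DOT1Li, 2258 genes (12.7%) were higher and 1580 (8.9%) lower. Of the 1785 large rises over DMSO, 655 were also higher than with EZH2i, 1066 higher than with DOT1Li and 400 higher than with both. Of the 172 large falls, 39 were also lower than with EZH2i, 108 lower than with DOT1Li and 31 lower than with both. The large changes were themselves chosen by values of the same combination libraries, so these counts are not independent of that choice. The share over all tested genes was not counted for both inhibitors together. Without EZH2i replicate 2 the counts against EZH2i were 874 higher and 515 lower, without EZH2i replicate 3 there were 600 lower, and without combination replicate 3 there were 597 lower against EZH2i and 1044 lower against DOT1Li.

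Some genes were well above both single treatments. SOX2 averaged 21.6 ± 7.404 CPM in combination libraries, 5.03 ± 0.162 CPM with EZH2i, 2.61 ± 0.646 CPM with DOT1Li and 0.433 ± 0.277 CPM with DMSO (SD, n = 3 each). Its log2 level was higher by 2.08 than with EZH2i and by 3.02 than with DOT1Li (edgeR, adjusted p = 3.49e-08 and 1.13e-10). PTPN6 averaged 19.5 ± 1.83 CPM in combination libraries, 6.78 ± 2.64 CPM with EZH2i, 8.86 ± 0.951 CPM with DOT1Li and 3.33 ± 0.64 CPM with DMSO, and KLF2 averaged 9.18 ± 1.097 CPM in combination libraries, 3.59 ± 0.654 CPM with EZH2i, 5.84 ± 0.975 CPM with DOT1Li and 2.25 ± 0.513 CPM with DMSO. Each of these differences between the combination and a single inhibitor passed the test, the least of them KLF2 against DOT1Li (adjusted p = 0.0184).

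Others did not pass the test against EZH2i alone. MYO1E averaged 26.2 ± 10.6 CPM in combination libraries, 21.4 ± 3.19 CPM with EZH2i, 2.52 ± 0.59 CPM with DOT1Li and 0.63 ± 0.222 CPM with DMSO, and the combination differed from EZH2i by 0.27 ± 0.25 on the log2 scale (adjusted p = 0.566). For FNBP1 that difference was -0.14 ± 0.18, for INF2 -0.08 ± 0.16 and for NME4 -0.16 ± 0.0997, none of which passed. BCL6 was lower with the combination than with either, at 75.8 ± 8.87 CPM in combination libraries, 141 ± 8.91 CPM with EZH2i, 109 ± 5.98 CPM with DOT1Li and 179 ± 15.6 CPM with DMSO (edgeR, adjusted p = 1.6e-06 against EZH2i and 0.00206 against DOT1Li). CCND3 was lower than with either as well, by log2 differences of -0.798 and -0.895. XBP1 and IRF4 lay between the inhibitors: XBP1 averaged 93.6 ± 12.1 CPM in combination libraries, 129 ± 8.57 CPM with EZH2i, 59.6 ± 1.51 CPM with DOT1Li and 66.04 ± 4.44 CPM with DMSO, being lower than with EZH2i (adjusted p = 0.00651) and higher than with DOT1Li (adjusted p = 8.7e-05). IRF4 had log2 differences of -0.49 from EZH2i and 0.66 from DOT1Li (edgeR, adjusted p = 0.009 and 0.00027).

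By list, 28 of 40 replication genes were lower with the combination than with EZH2i and 35 lower than with DOT1Li, and 12 and 34 of the 39 mitosis genes were so. Over all tested genes 7.69% were higher and 5.1% lower than with EZH2i, and 12.7% higher and 8.9% lower than with DOT1Li. The median log2 fold change of replication genes was -0.47 with the combination, -0.195 with EZH2i and -0.105 with DOT1Li, each against DMSO. Interferon response genes went the other way against EZH2i, with 25 of 48 higher and 0 lower than with EZH2i, and 2 higher and 15 lower than with DOT1Li. Their median against DMSO was 0.09 with the combination, -0.48 with EZH2i and 0.19 with DOT1Li.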

How the data were processed

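Polyadenylated RNA of 48 libraries was sequenced. The authors deposited raw read counts per gene for 37706 genes with symbols and coordinates. The submitters' processing notes name STAR, DESeq2 and GRCh38. The counter, its use of strand and the version of the gene annotation were not given in the sources used here.

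All 48 libraries were fitted with edgeR 4.0.16 in R 4.3.3 as 16 groups (32 residual degrees of freedom), after its filter on low counts left 17749 genes and with TMM scaling and robust dispersions. Contrasts were tested with the quasi-likelihood test and called at a Benjamini-Hochberg adjusted p under 0.05. Levels are CPM, counts per 1000000 of the scaled library size, and a prior count of 2 was added for mean log2 CPM. Each SE is the absolute log2 fold change over the root of the F statistic. Floors of 3 counts cover counting error only. In simulated counts of the Oci-Ly18 comparison, 39 of 40 genes raised by 1 and 13 of 40 raised by 0.5 on the log2 scale were recovered, with 7 false calls among 17485 genes. The spread of the simulated counts was set by a formula and not estimated from the libraries, so these shares need not hold for the data.

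The reported fit has no pairing term. Same-numbered combination and DMSO libraries were taken as pairs in an alternative fit with a replicate block: over 9587 genes with a mean log2 CPM of at least 3 their deviations from the group means correlated by 0.217, 0.164 and 0.186, and those of other pairings by at most 0.032. Over all 17749 genes the values were 0.039, 0.036 and 0.063, and the labels do not say what a number marks.

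The genes singled out were a panel, the largest changes, the smallest adjusted p-values, up to 4 called members of each list, and the smallest p-values for the difference from the other lines. The members, the gene lists and the rules were chosen with earlier results of these data known. The 40 lists were put together by hand, 18 of their 1109 entries had no row in the table, and list members outside the rule are said to be chosen after their values were seen. Alternatives were no filter, DESeq2 1.42.0, its size factors, fewer libraries, a replicate block and leaving out 1 library. A few genes are not reported here. Promoters came from RefSeq (GRCh38.p14).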

Additional observations from a re-analysis of the deposited data

Results flagged for a closer look

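The results below were singled out by a test of the difference between lines (edgeR's quasi-likelihood test, adjusted over all tested genes). Each value is the log2 fold change of the combination against DMSO in Oci-Ly18 minus its mean in Oci-Ly7, Oci-Ly8 and SUDHL6, and no explanation was weighed. In total 1336 genes had a higher and 1869 a lower effect in Oci-Ly18.

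Among germinal centre and B cell genes the difference was -1.42 for BCL6, -1.463 for MYBL1, -1.557 for HMCES, -0.69 for EBF1, -0.707 for MS4A1 and -1.05 for CD38, against 1.224 for BLNK and 1.002 for XBP1. For PAX5 it was -0.363, and the call was lost without combination replicate 1 (adjusted p = 0.0649) or DMSO replicate 2 (adjusted p = 0.0726) of Oci-Ly18. Of the growth and survival genes, MYC had 0.876, CCND3 -1.461, CDKN1B -0.632 and EZH2 -0.409. BCL2 had -0.523, a call lost without combination replicate 1 or 3 or DMSO replicate 2 of Oci-Ly18, or DMSO replicate 2 of Oci-Ly7 (adjusted p from 0.0512 to 0.0614).

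The genes chosen for the smallest p of the difference, not for its size, had 5.095 for FNBP1, 3.301 for ANXA6, 3.012 for PREX1, 2.551 for NME4 and 1.87 for CABLES1 on the higher side. On the lower side SMAD6 had -2.738, PHYH -1.809, OPTN -1.776 and RUBCNL -1.146.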

How the results depend on the processing

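For the combination against DMSO, the counts of higher and lower genes were 3740 and 2477 as reported, 3835 and 2354 with DESeq2, 3885 and 2286 with its size factors, 3471 and 2443 without the low-count filter, 3990 and 3605 with the 12 Oci-Ly18 libraries, 3850 and 3548 with the 6 compared ones, and 4095 and 3218 without 2 Oci-Ly8 libraries. With the number pairing libraries as a replicate block they were 4193 and 3024. Leaving out 1 library gave 3063 to 3520 higher and 1966 to 2285 lower, 1605 to 1822 large rises, 153 to 209 large falls and 59 to 77 genes silent in DMSO libraries called higher. That last count was 162 without the filter, and 6 with the 12 or the 6 libraries, where fewer genes were tested. For the difference from the other lines, leaving out 1 library gave 1005 to 1550 higher and 1547 to 2024 lower.

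Against EZH2i, leaving out 1 library gave 874 to 1209 higher and 515 to 718 lower genes, and against DOT1Li 1632 to 2247 higher and 1044 to 1509 lower. The lower count against EZH2i was 1804 with the 12 Oci-Ly18 libraries, 1554 without 2 Oci-Ly8 libraries and 1420 with the replicate block, and against DOT1Li it was 2757 with the 12 libraries. The cause was not tested. No reported result reversed in any setting run, but 1 of the 3205 genes called for the difference from the other lines took the other sign, without passing the test, when Oci-Ly7 combination replicate 3 was left out. For single genes against DMSO, 2556 values in other settings kept their side of the threshold, 24 passed it and 30 lost it. Among the 202 genes singled out, the block changed no call against DMSO other than those of DOT1L, EZH1, IRF4, PAX5 and MS4A1. Most changes of 0.5 on the log2 scale escaped detection in the simulated counts, whose spread was set by a formula. In the data, 37 of 40 replication genes, with a median of -0.47, were called lower. With 3 libraries a group, low genes rest on few counts.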
